A study of Mus musculus with 22 samples.

Results

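The muscle acetylcholine receptor and its neighbours at the neuromuscular junction were followed in the ischemic gastrocnemius muscle of 22 mice. The genes were the 5 subunit genes of the muscle receptor (Chrna1, Chrnb1, Chrnd, Chrne and Chrng), the receptor kinase gene Musk and the adhesion molecule gene Ncam1. They were chosen by gene symbol, and every probe that the platform annotation assigns to them was used, which gave 14 probes for 7 of the 18524 genes measured. Chrnb1 and Chrne had 1 probe each, Chrna1, Chrnd, Chrng and Musk had 2 each, and Ncam1 had 4.

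All mice were non-diabetic male C57BL/6N mice, 8 to 12 weeks old, whose femoral artery had been removed to make the hindlimb ischemic. On day 5 after surgery, 11 mice were injected with ANTI-210, a locked nucleic acid oligonucleotide that blocks miR-210, and 11 with a scrambled oligonucleotide (SCR), and the muscles were taken on day 7. Every muscle was ischemic, so the values compare ANTI-210 with SCR and not ischemic with healthy muscle. RNA of each muscle was measured on an Illumina bead array, and values are given on the log2 scale, where a difference of 1 is a doubling. Each level belongs to its own probe and cannot be set against the level of another probe.

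The muscle receptor is an ion channel of 5 subunits that opens when acetylcholine released by the motor nerve binds to it. A pair of alpha subunits, encoded by Chrna1, joins with a beta and a delta subunit, and the remaining place is taken by the gamma subunit in embryonic muscle and by the epsilon subunit in the adult. Nerve-derived agrin binds Lrp4 and activates MuSK, which gathers receptors under the nerve terminal. Adult fibres make receptors almost only at the junction, whereas fibres that are regenerating or have lost their nerve transcribe the alpha, beta, delta and gamma genes along their length, with Ncam1 among the genes that accompany them. Myogenin, encoded by Myog, is a muscle transcription factor that binds E-boxes in several of these genes.

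The microRNA that ANTI-210 blocks, mmu-miR-210-3p, is encoded on chromosome 7 (GRCm38.p6, chr7:141221407-141221428, minus strand). Its mature sequence is shown with the seed, bases 2 to 8, in capitals, since the seed is what pairs with target messages.
mmu-miR-210-3p: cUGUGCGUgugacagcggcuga

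The promoters of the embryonic gamma, the adult epsilon and the alpha subunit are shown because the comparison of embryonic with adult receptor turns on these genes. Each is the 250 bases before the transcription start used in the RefSeq promoter table for GRCm38.p6, on the strand of the gene. The gene span of Chrne in the RefSeq gene table begins further upstream, so that 19 bases at the end of its window lie inside that span. Capitals mark the E-box form CAGCTG and, in Chrne, the core CCGGAA of the N-box, the element of synaptic genes that GABP binds.
Chrng, chr1:87205561-87205810, plus strand: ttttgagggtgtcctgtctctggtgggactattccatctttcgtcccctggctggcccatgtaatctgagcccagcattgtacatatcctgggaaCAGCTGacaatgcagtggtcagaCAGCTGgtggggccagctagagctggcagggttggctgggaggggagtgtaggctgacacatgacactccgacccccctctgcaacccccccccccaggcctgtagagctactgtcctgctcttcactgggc
Chrne, chr11:70619195-70619444, minus strand: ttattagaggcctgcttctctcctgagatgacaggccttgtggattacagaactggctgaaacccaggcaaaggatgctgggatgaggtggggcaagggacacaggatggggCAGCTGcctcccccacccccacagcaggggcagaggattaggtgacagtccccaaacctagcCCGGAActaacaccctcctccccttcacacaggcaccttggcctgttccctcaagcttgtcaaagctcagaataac
Chrna1, chr2:73580339-73580588, minus strand: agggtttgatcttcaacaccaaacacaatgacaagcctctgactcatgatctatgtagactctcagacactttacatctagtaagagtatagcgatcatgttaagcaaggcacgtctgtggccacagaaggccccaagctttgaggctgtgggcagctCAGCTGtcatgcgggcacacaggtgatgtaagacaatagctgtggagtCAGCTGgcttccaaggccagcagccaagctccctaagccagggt

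Promoters were matched for 5 of the 7 genes, the others being Chrnb1 and Musk, while Chrnd and Ncam1 had none in the table. CAGCTG, which reads the same on both strands, occurred 2 times in Chrng, beginning 155 and 132 bases before the start in the promoter table, and 2 times in Chrna1, at 92 and 44 bases. It occurred 1 time in Chrne, at 138 bases, 1 time in Musk and 0 times in Chrnb1. The gene span of Musk in the gene table begins so far upstream that 233 bases of its window, the match included, lie inside the gene, and 29 bases of the Chrnb1 window do so too. Of all 32851 promoter windows of this length, 13.0% held at least 1 CAGCTG and 1.26% held 2 or more. The looser E-box CANNTG, of which CAGCTG is 1 form, was found in 66.2% of all windows. CCGGAA, read on both strands, occurred 1 time in Chrne, 76 bases before that table's start, and in none of the other 4 promoters, against 12.0% of all windows. These are letter matches and not measured binding. Chrng lies next to Chrnd on chromosome 1, with 5740 bases between the end of Chrnd (chr1:87190597-87200070) and the start of Chrng (chr1:87205811-87211835). Chrna1 lies at chr2:73563281-73580338, Chrne at chr11:70614883-70619213, Chrnb1 at chr11:69784036-69795966, Musk at chr4:58285729-58377848 and Ncam1 at chr9:49502129-49799393.

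The arrays correlated with each other at 0.947 to 0.997. Of the variance between arrays, 63.6% lay on the first principal component, and the second component separated the mice with replicate numbers 1 to 3 from those with numbers 4 to 11 (-24.9 to -14.9 in the first set against -6.06 or more in the other). The labels do not say what this set difference is, so the comparisons of the 7 genes are also given within each set, with 3 and 8 mice per group. Muscle identity was checked with 14 measured genes of mature fibres, all well above the floor, whose mean level was 14.2 to 14.7 in ANTI-210 mice and in SCR mice. Probes with a mean under 6 over all mice, 62.6% of those on the array, are described as near the floor. Of the 14 probes, 10 were above it, and both Chrnd probes, the second Chrng probe and the second Musk probe were near it.

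In the muscles after ANTI-210, Musk was lower than after SCR by both of its probes, and no probe of the receptor subunits or Ncam1 differed at an unadjusted p under 0.05, the threshold of the study's methods. By limma, 2 of 14 probes were therefore lower and 0 were higher. Over all 38563 probes, 3.41% passed this threshold (567 higher, 749 lower), and over genes, 3.47%. After Benjamini-Hochberg adjustment 0 of the 14 passed, against 0.00519% of all probes. The median difference was 0.12 over the 14 probes and -0.0036 over all genes.

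Musk had levels of 7.48, 7.60 and 7.92 (lowest, median, highest) in ANTI-210 mice and 7.46, 8.02 and 8.30 in SCR mice by its brighter probe. The ANTI-210 mice were all below the SCR median, while 6 of 11 SCR mice were above the highest ANTI-210 mouse. The group ranges still overlapped, since 5 SCR mice lay within or below the ANTI-210 range. The means were 7.63 ± 0.14 in ANTI-210 mice and 7.91 ± 0.29 in SCR mice (SD, n = 11 each), a difference of -0.28 (SE 0.096, 95% interval -0.48 to -0.084, limma unadjusted p = 0.00736, adjusted p = 1). The second probe, near the floor, read 4.95, 5.12 and 5.30 in ANTI-210 mice and 5.00, 5.44 and 5.73 in SCR mice. Its difference was -0.26 (SE 0.079, limma unadjusted p = 0.00312, adjusted p = 1). The probes read the same RNA and are not independent evidence, and their values correlated at 0.575 over the mice. Within replicate numbers 1 to 3, Musk was 7.48, 7.48 and 7.60 in ANTI-210 mice and 7.80, 8.02 and 8.30 in SCR mice, without overlap (difference -0.52, two-sided exact permutation p = 0.1, the smallest that 3 against 3 allows). Within numbers 4 to 11 the difference was -0.19 (exact permutation p = 0.133) by the brighter probe and -0.18 (exact permutation p = 0.0825) by the other. The direction held in both sets, but the call was not met in the larger set, with 8 mice per group. In these bulk samples, fewer cells of a type and less RNA per cell cannot be told apart.

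The embryonic subunit gene Chrng varied widely among mice within each group. Chrng had levels of 8.02, 10.15 and 12.09 (lowest, median, highest) in ANTI-210 mice and 7.74, 9.58 and 12.21 in SCR mice. The groups covered almost the same range. The means were 10.10 ± 1.25 and 9.86 ± 1.46 in ANTI-210 and SCR mice (SD, n = 11 each), with a difference of 0.24 (SE 0.56, 95% interval -0.92 to 1.40, limma unadjusted p = 0.668). From the lowest to the highest mouse Chrng spanned 4.47 on the log2 scale, a 22.2-fold range. Only 0.162% of all 18524 genes, those near the floor included, had an SD over the mice as large as its 1.33. The highest mice were SCR replicates 6 and 7, at 12.21 and 12.16, and ANTI-210 replicate 11, at 12.09. The lowest were SCR replicate 11, at 7.74, and ANTI-210 replicate 6, at 8.02. These spreads are those of the brighter probe. The second probe, near the floor, differed by 0.06 (p = 0.804 by limma) and spanned only 1.79 over all mice, with an SD of 0.59.

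The adult subunit gene Chrne varied less than the brighter Chrng probe. Its levels were 8.39, 8.95 and 9.29 in ANTI-210 mice and 7.56, 8.82 and 9.40 in SCR mice. All but 2 mice lay between 8.39 and 9.40, and the exceptions, SCR replicates 6 and 7 at 7.56 and 7.67, were the mice with the highest Chrng. The means were 8.88 ± 0.26 and 8.68 ± 0.56 in ANTI-210 and SCR mice (SD, n = 11 each), a difference of 0.20 (SE 0.18, 95% interval -0.17 to 0.57, limma unadjusted p = 0.279). The span was 1.84 on the log2 scale, or 3.58-fold. Of all genes, those near the floor included, 13.6% had an SD as large as that of Chrne.

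**Figure D1:**
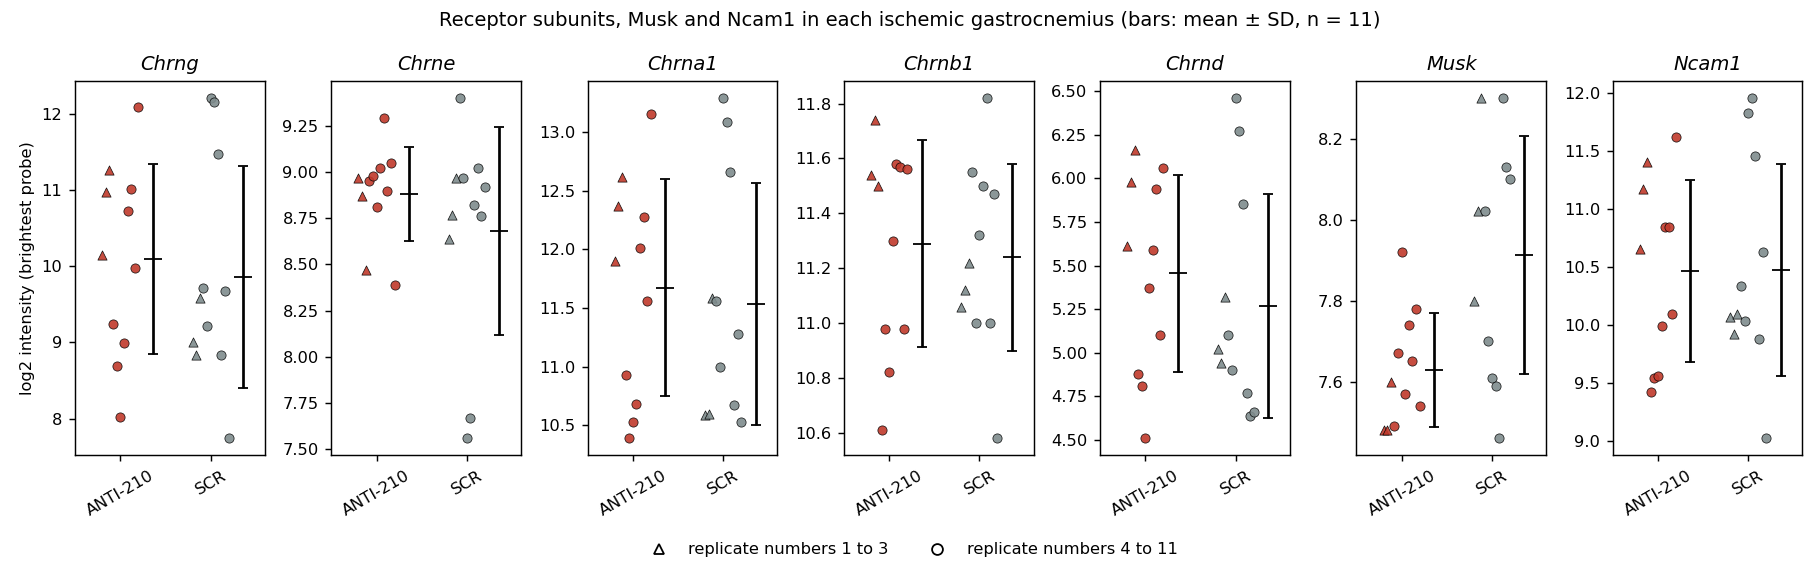
Log2 intensity of the brightest probe of each gene (vertical axis, own scale per panel) in ANTI-210 mice (left, red) and SCR mice (right, grey), with 1 point per mouse, triangles for replicate numbers 1 to 3, circles for 4 to 11, and bars for the mean ± SD (n = 11). The groups overlap in every panel, all ANTI-210 mice lie below the SCR median of 8.02 for Musk, and SCR replicates 6 and 7 are the 2 low points for Chrne.

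The embryonic and adult subunits were contrasted within each mouse as the Chrng value minus the Chrne value. Probes of different genes have different brightness, so only the difference of this quantity between mice has a meaning. It averaged 1.22 ± 1.38 in ANTI-210 mice and 1.18 ± 1.91 in SCR mice (SD, n = 11 each). The groups differed by 0.04 (95% interval -1.44 to 1.53, two-sided permutation p = 0.954), an interval wide enough to hold a change of more than 2-fold either way. Within numbers 1 to 3 the difference was 1.68 (exact permutation p = 0.1), and within numbers 4 to 11 it was -0.57 (exact permutation p = 0.547). When the first component was added to the fit as a covariate, it was -0.34 (permutation p = 0.0218 after the component was removed). That component came from these same arrays and had r = 0.968 with Chrng, so removing it took out most of the Chrng variation. With it as a covariate, Chrng differed by -0.065 and Chrne by 0.28.

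Among the other subunits, Chrna1, which makes the acetylcholine-binding alpha subunit, had levels of 10.39, 11.90 and 13.15 in ANTI-210 mice and 10.53, 11.28 and 13.29 in SCR mice. Its difference was 0.14 (SE 0.40, limma unadjusted p = 0.729), and the second probe followed the first at r = 0.995. Chrnb1, the beta subunit, spanned only 1.24 over all mice, with 10.61, 11.50 and 11.74 in ANTI-210 mice and 10.58, 11.22 and 11.82 in SCR mice. Its difference was 0.05 (SE 0.15, p = 0.744 by limma). Chrnd, the delta subunit, was near the floor by both probes, the brighter reading 4.51, 5.59 and 6.16 in ANTI-210 mice and 4.64, 5.02 and 6.46 in SCR mice. The Chrnd differences were 0.19 and 0.12 (p = 0.456 and 0.59 by limma), and values so close to the floor understate any change. Ncam1 had levels of 9.42, 10.66 and 11.62 in ANTI-210 mice and 9.02, 10.09 and 11.96 in SCR mice by its brightest probe. The 4 Ncam1 probes differed by -0.01, 0.30, 0.02 and 0.19 (p = 0.986, 0.515, 0.957 and 0.581 by limma), and the other 3 followed the brightest at r of 0.927 to 0.952.

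The sets of replicate numbers gave opposite signs for most of these genes. Within numbers 1 to 3, Chrng was 10.15, 10.97 and 11.26 in ANTI-210 mice and 9.01, 8.83 and 9.58 in SCR mice, a difference of 1.65 (exact permutation p = 0.1). Chrna1 differed there by 1.37, Chrnb1 by 0.46, the Chrnd probes by 0.82 and 0.89, and the Ncam1 probes by 1.05, 1.83, 0.94 and 1.19. In all, 11 of 14 probes were higher in ANTI-210 mice of this set, Chrne (-0.02) and both Musk probes being the exceptions, and 13 of 14 passed an unadjusted p under 0.05 by limma. Over all probes, 29.3% passed in this set, so that a large part of the array separated these 3 mice from the other 3. Within numbers 4 to 11, 13 of 14 probes were lower in ANTI-210 mice, with Chrne (0.28) the exception, and 0 passed, by limma unadjusted or by the exact permutation test, against 2.54% of all probes. Chrng differed there by -0.29 (exact permutation p = 0.704), Chrna1 by -0.32 and Chrnb1 by -0.11. The difference between the sets had an unadjusted p under 0.05 for 3 probes, 1 of Chrnd and 2 of Ncam1, each with an adjusted p of 0.448. How many of all probes passed that threshold was not counted, so 3 of 14 cannot be called unusual for the array. None of the sources used here states what sets these numbers apart.

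**Figure D2:**
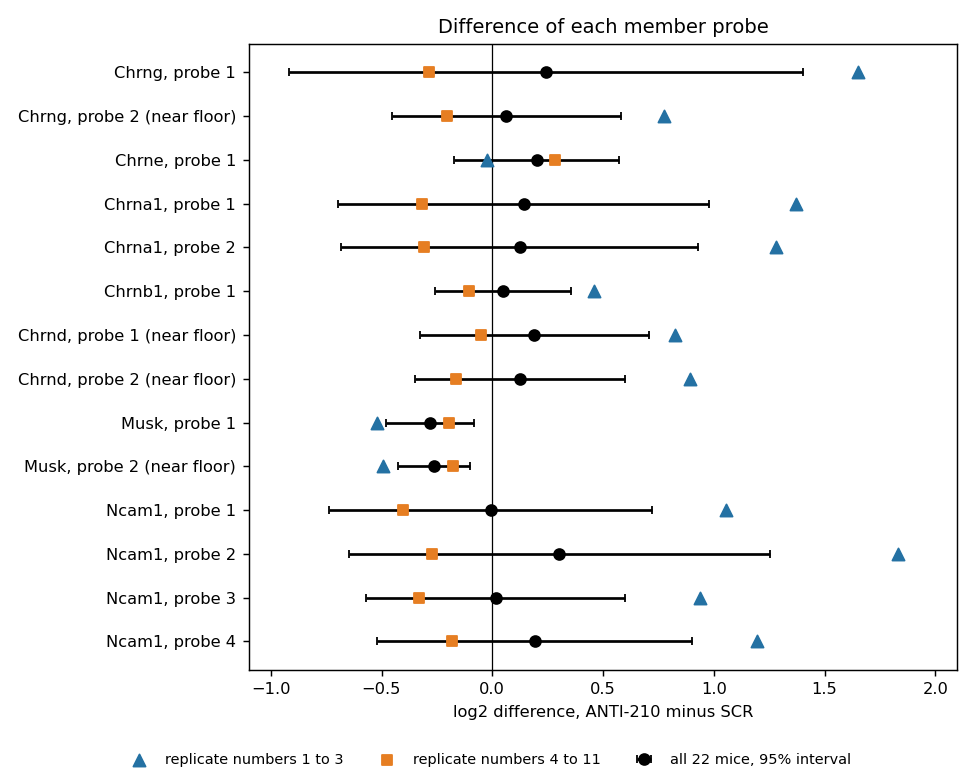
Log2 difference, ANTI-210 minus SCR (horizontal axis), of each of the 14 probes (rows), for all 22 mice with the 95% interval (black), for replicate numbers 1 to 3 (blue triangles) and for numbers 4 to 11 (orange squares). Only the 2 Musk intervals, at -0.28 and -0.26, do not reach 0, and the blue and orange values lie on opposite sides of 0 for all genes but Musk.

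Over the mice, Chrng, Chrna1, Chrnd, Chrnb1 and Ncam1 varied together, and Chrne and Musk did not join them. The 10 pairs among these 5 genes had Pearson r between 0.714 and 0.977 (n = 22, largest adjusted permutation p = 0.000387). Without the 2 mice farthest from the median of the first gene of each pair the lowest r was 0.76, within numbers 4 to 11 the range was 0.673 to 0.981, and within numbers 1 to 3 it was 0.868 to 1.0 (n = 6). Chrng and Chrna1 had r = 0.977 (permutation p = 1e-05, the smallest that 100000 resamples give) and Spearman rho = 0.979 (p = 1e-05). Without SCR replicates 6 and 7 that r was 0.969. Only 21 of the 8827 other genes above the floor were more like Chrng than Chrna1 was. Ncam1 ranked 95 of them (r = 0.965, rho = 0.957, permutation p = 1e-05 for both), and Chrnb1 ranked 2196 (r = 0.757, rho = 0.756, permutation p = 5e-05 and 3e-05). The r of Chrnb1 was ordinary for the array, since 47.9% of the genes above the floor had one with Chrng at least as large in size. Chrnd, which is near the floor and so was not ranked, had r = 0.93 with Chrng (rho = 0.888, permutation p = 1e-05 for both). These ranks stand against a broad pattern, since 18.0% of those genes had an r with Chrng of at least 0.9 in size, 1035 of them positive and 553 negative, and Chrng itself had r = 0.968 with the first principal component. With that component removed from both genes, the r of the 10 pairs ran from -0.055 (Chrnd with Ncam1) to 0.744 (Chrnb1 with Ncam1). It was then 0.64 for Chrng with Chrna1 and 0.146 for Chrng with Chrnd.

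**Figure D3:**
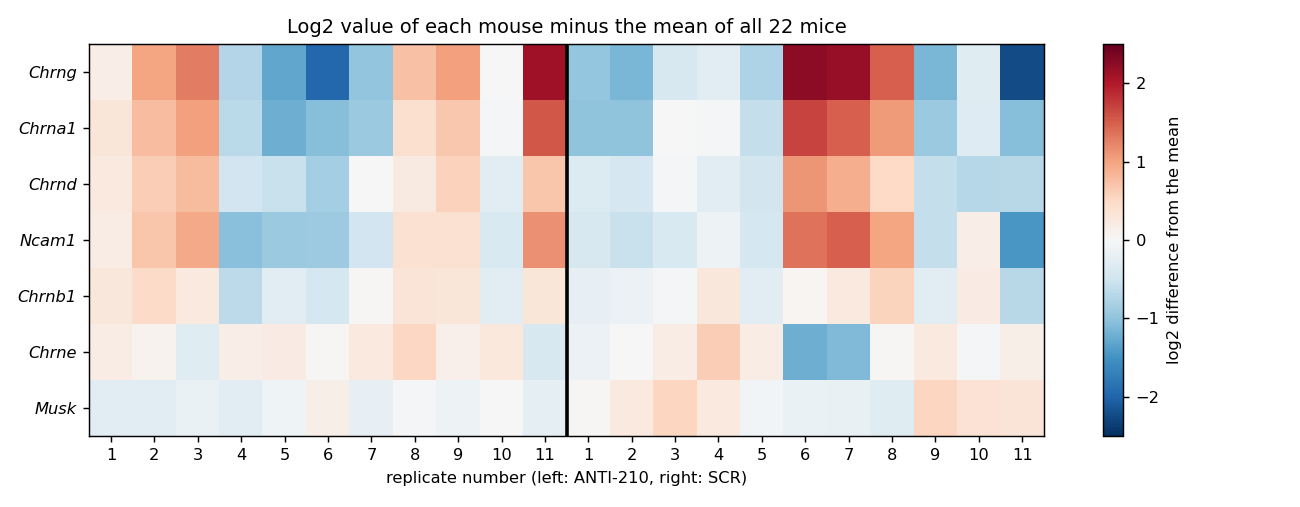
Log2 value of each gene (rows, brightest probe) in each mouse minus the mean of that gene over all 22 mice (colour), with ANTI-210 mice on the left and SCR mice on the right by replicate number. Chrng, Chrna1, Chrnd, Ncam1 and Chrnb1 are high in the same mice, such as ANTI-210 replicate 11 and SCR replicate 8, while Chrne is lowest in SCR replicates 6 and 7.

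Chrne ran against Chrng, but this rested largely on 2 mice. The pair had r = -0.585 (permutation p = 0.00301, adjusted p = 0.00405 over 35 relations) and rho = -0.4 (permutation p = 0.0663, adjusted p = 0.0774). Without SCR replicates 6 and 7 the r was -0.288 (permutation p = 0.218), still negative but not past the threshold. Among the ANTI-210 mice, which include neither of the 2, the r was -0.443, and among the SCR mice it was -0.733. No test was run within the treatment groups. The r was -0.627 within numbers 4 to 11 (n = 16, permutation p = 0.00629), which hold SCR replicates 6 and 7, and -0.205 within numbers 1 to 3 (n = 6, exact permutation p = 0.692). With the first principal component removed from both genes it was 0.442 (permutation p = 0.0386). An r with Chrng at least this large in size was found for 65.8% of the genes above the floor. In ANTI-210 replicate 11, with Chrng at 12.09, Chrne was 8.39, and in SCR replicate 8, with Chrng at 11.48, Chrne was 8.82.

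Musk also ran against Chrng (r = -0.556, permutation p = 0.00788, adjusted p = 0.00985, rho = -0.568, permutation p = 0.00681). An r with Chrng at least this large in size was found for 68.3% of the genes above the floor, whose median was 0.743 in size. Without SCR replicates 6 and 7 the r of Musk was -0.539, and it was -0.653 within numbers 1 to 3 and -0.553 within numbers 4 to 11. The sign was also negative within each treatment group, at -0.431 in ANTI-210 mice and -0.704 in SCR mice. With the first principal component removed it was 0.02. When that component was a covariate, the Musk difference between the groups was -0.25 (limma unadjusted p = 0.0039).

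**Figure D4:**
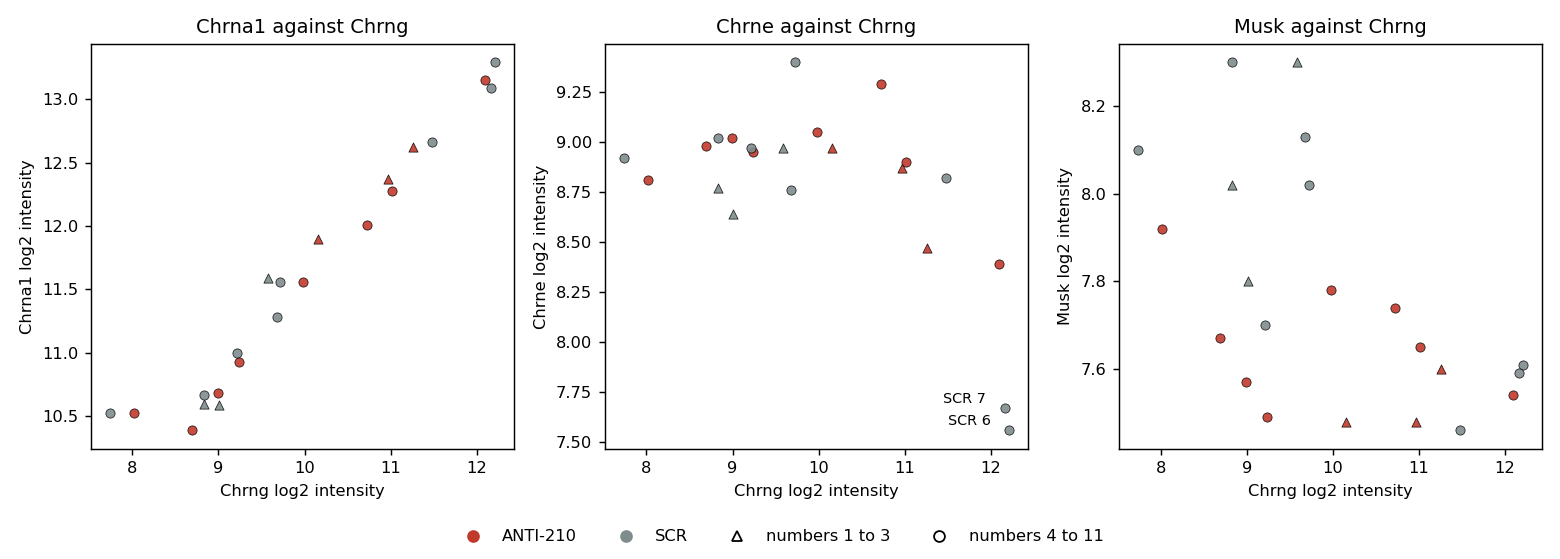
Log2 intensity of Chrna1, Chrne and Musk (vertical axes) against that of Chrng (horizontal axes) in each of the 22 mice, red for ANTI-210 and grey for SCR, triangles for replicate numbers 1 to 3 and circles for 4 to 11. Chrna1 lies on a narrow band with Chrng (r = 0.977), the negative relation of Chrne rests largely on SCR replicates 6 and 7 (r = -0.288 without them), and most ANTI-210 mice lie low in Musk.

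Markers of other cell states moved with Chrng across the mice. Myog followed it at r = 0.981 (rho = 0.968, permutation p = 1e-05 for both) and ranked 12 among the genes most like it, with r = 0.987 within numbers 1 to 3 and 0.981 within numbers 4 to 11. Myh4, the myosin of fast adult fibres, ran the other way (r = -0.81, rho = -0.763, permutation p = 1e-05 and 5e-05). An r with Chrng at least as large in size as that of Myh4 was found for 40.2% of the genes above the floor. With the first principal component removed, the r with Chrng was 0.693 for Myog and 0.404 for Myh4. Chrne followed Myh4 (r = 0.727, rho = 0.524, permutation p = 0.00092 and 0.0135). Without SCR replicates 6 and 7 that r was 0.646 (permutation p = 0.00297). Of the genes above the floor, 10.3% had an r with Chrne at least as large in size as that of Myh4. The mean of 9 measured genes of satellite cells and regenerating fibres, 7 of them above the floor, had r = 0.987 with Chrng, that of 8 leukocyte genes, 4 above the floor, 0.946, and that of 14 mature fibre genes -0.784 (permutation p = 1e-05 for each, rho = 0.964, 0.912 and -0.683). The single regenerating fibre genes, with Myog among them, had r from 0.192 (Myf5, near the floor) to 0.981. The single leukocyte genes had r from -0.0966 (Ncr1, near the floor) to 0.946. The mature fibre genes had r from -0.81 to 0.262. Their means reached 15.35, close to the highest value on the array, 15.4, and values so close to the top may understate change. The regenerating fibre mean was 9.44 to 10.82 in ANTI-210 mice and 9.20 to 10.90 in SCR mice, and the leukocyte mean was 6.63 to 7.99 and 6.31 to 8.04 in ANTI-210 and SCR mice. The mean of 13 genes of the motor axon, of which only 1 was above the floor, had r = 0.869 (rho = 0.794, permutation p = 1e-05 and 2e-05), and that of 8 Schwann cell genes, 5 above the floor, had r = -0.01 (rho = -0.134, permutation p = 0.958 and 0.55). The single motor axon genes ran both ways with Chrng, with r from -0.345 to 0.919, and the 1 above the floor had r = 0.499. The motor axon mean therefore does not speak for all genes of that list. The Schwann cell value joined opposite signs, 0.865 within numbers 1 to 3 (n = 6, exact permutation p = 0.0611) and -0.555 within numbers 4 to 11 (n = 16, permutation p = 0.0254). Its genes ran both ways, with r from -0.631 to 0.917 (-0.541 for the myelin gene Mbp and 0.203 for Pmp22). The other list means kept their sign in both sets, at 0.991 within numbers 1 to 3 and 0.989 within numbers 4 to 11 for regenerating fibres, 0.877 and 0.968 for leukocytes, -0.729 and -0.815 for mature fibres and 0.92 and 0.865 for the motor axon. With the first principal component removed, their r with Chrng was 0.804 for regenerating fibres, 0.319 for leukocytes, 0.282 for mature fibres and -0.112 for the motor axon. Musk had r = -0.644 with the leukocyte mean (rho = -0.626, permutation p = 0.00117 and 0.0021). Chrne had r = 0.787 with the mature fibre mean (rho = 0.453, permutation p = 0.00047 and 0.0355). Without SCR replicates 6 and 7 the latter r was 0.56 (permutation p = 0.0134). The part of these cell types in the levels of the 7 genes was not tested.

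The genes most like Chrng over the 22 mice were Tmsb10 (r = 0.988), which encodes an actin-binding thymosin, the ribosomal protein gene Rpl3 (0.987), Nt5dc2 (0.984), Cyba (0.983), a subunit of the phagocyte NADPH oxidase, and the transporter gene Abcc3 (0.983). At the other end were H4c6 (-0.971), Prxl2a (-0.969), the proteasome activator gene Psme4 (-0.963), H4c18 and Zcrb1 (-0.962 each). Those most like Chrne were Atp5o (0.912), a subunit of the mitochondrial ATP synthase, Fbxo9 (0.893), Taz (0.884), Ccm2l (0.882) and Slc9a2 (0.874), with Exoc6b (-0.89) and Spcs3 (-0.871) at the other end, followed by Slc31a1, Srm and Cd248. Without SCR replicates 6 and 7, the r with Chrne was lower in size for all 10 of these genes, 0.644 to 0.749 for the 5 at the upper end and -0.702 to -0.594 for the 5 at the lower end. The 10 genes named for Chrng stayed at 0.977 to 0.983 and at -0.964 to -0.948 without them.

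The wider junction showed few calls. Of 12 measured genes of agrin, Lrp4 and MuSK signalling, 1 was lower, Musk itself, and 0 were higher, with a median difference of 0.03. Agrn, the agrin gene, had 10.44 ± 0.28 in ANTI-210 mice and 10.25 ± 0.26 in SCR mice (SD, n = 11 each, p = 0.111 by limma). Rapsn, whose product rapsyn anchors the receptor, had 9.72 ± 0.10 in ANTI-210 mice and 9.80 ± 0.13 in SCR mice (SD, n = 11 each, p = 0.153 by limma). Of 19 genes of the synaptic basal lamina and postsynaptic membrane, 1 was lower and 0 were higher, with a median difference of 0.0045. The lower gene was Gabpa, which encodes the DNA-binding subunit of GABP, at 6.39 ± 0.11 in ANTI-210 mice and 6.53 ± 0.16 in SCR mice (difference -0.15, p = 0.0171, adjusted p = 1 by limma). Of 12 genes set by loss of nerve activity, 1 was lower, the muscle transcription factor gene Mef2c, at 12.41 ± 0.12 and 12.56 ± 0.18 in ANTI-210 and SCR mice (difference -0.15, p = 0.0324, adjusted p = 1 by limma). Myog, on the same list, differed by 0.39 (p = 0.369 by limma). None of 11 neuronal receptor subunit genes was above the floor and 0 were called by limma. Within numbers 1 to 3, Gabpa differed by -0.35, Mef2c by -0.20, Agrn by 0.68 and Myog by 1.44 (exact permutation p = 0.1 for each), and Rapsn by -0.04 (exact permutation p = 0.9). Within numbers 4 to 11, the differences were -0.07 for Gabpa, -0.13 for Mef2c, 0.0013 for Agrn, -0.0037 for Myog and -0.08 for Rapsn (exact permutation p = 0.208, 0.175, 1, 0.997 and 0.144). The counts of genes called are to be read against the 3.47% of all genes called.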

How the data were processed

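RNA of 22 ischemic gastrocnemius muscles, 1 mouse per array, was measured on Illumina MouseWG-6 v2 BeadChips, and groups were taken from the labels. The deposited log2 values of 38563 probes had been summarised in GenomeStudio, quantile normalized and filtered with beadarray by the authors. No source names the base of the logarithm, and 2 was assumed because values run from 4.35 to 15.4. Detection p-values were not used here, and the number of arrays limits the precision.

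Differences are ANTI-210 minus SCR from limma 3.58.1 (lmFit and eBayes, R 4.3.3) on all probes, two-sided, unadjusted and Benjamini-Hochberg adjusted. The brightest probe stood for its gene in lists and relations. Permutation tests used 100000 resamples, or all arrangements within sets of replicate numbers (exact). Among the members, Myog and Myh4, 35 relations were computed, fewer than planned, since Myh3 has no named probe and 1 further item is not reported here, and 15 with list means were added after seeing the data, as were the likeness without 2 mice and the values of list genes within sets. The limma fit treats mice as independent.

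The members and gene lists were chosen with earlier results of these data known. Named are all probes of the members, at most 4 genes of each list with the smallest p, the 5 genes at each end of likeness to Chrng and to Chrne, and Myog and Myh4. Promoter and microRNA sequences are from RefSeq (GRCm38.p6). Alternatives tried were other normalizations, probe choices and filters, the first principal component, the sets of replicate numbers, a replicate block, and leaving out each mouse.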

Additional observations from a re-analysis of the deposited data

Results flagged for a closer look

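The difference between ANTI-210 and SCR itself differed between the sets of replicate numbers for 3 of the 14 probes at an unadjusted p under 0.05, by the interaction term in limma. For the second Chrnd probe, which is near the floor, the difference in numbers 1 to 3 minus that in numbers 4 to 11 was 1.057 (p = 0.0368). It was 2.105 (p = 0.0415) for the second Ncam1 probe and 1.271 (p = 0.0419) for the third. Each had an adjusted p of 0.448 over all probes, so none passed after correction. The share of all probes with an interaction p under 0.05 was not counted, so these 3 are not shown to stand out from the array. For Chrng, the difference in numbers 1 to 3 minus that in numbers 4 to 11 was 1.94 (p = 0.134).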

How the results depend on the processing

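The count of 2 called probes was unchanged in all 22 fits that left out 1 mouse and in the fit with a replicate block, became 4 when the first principal component was a covariate and 13 within numbers 1 to 3, and was 0 within numbers 4 to 11. Musk stayed lower under all 12 other settings (-0.52 to -0.19, limma unadjusted p 0.000506 to 0.114) and lost its call within numbers 4 to 11. It was also lower in all 22 omissions (-0.33 to -0.24, limma unadjusted p 0.00145 to 0.0154). The Chrng minus Chrne difference of 0.04 became -0.047 with the mean of all probes, -0.57 within numbers 4 to 11 and -0.34 with the component, ranged from -0.21 to 0.39 when 1 mouse was left out, and was 0.04 with a replicate block (exact sign-flip permutation p = 0.972). The r of Chrng with Chrne was -0.20 within numbers 1 to 3, -0.29 without 2 mice, 0.44 with the component and -0.40 as rho. With the component as a covariate, Chrna1 became -0.080, Chrnb1 -0.0094 and Chrng -0.065, and Chrne (0.28, p = 0.0358) and Ncam1 (-0.20, p = 0.0449) were called. Within numbers 4 to 11, Chrna1 was -0.32, Chrnb1 -0.11, Chrnd -0.049 and Chrng -0.29, and within numbers 1 to 3 Chrne was -0.023 and Ncam1 1.05. Ncam1 was also above 0 with cyclic loess (0.0058), array weights (0.27) and the mean of its probes (0.13). Array weights also moved Chrng to 0.68 (p = 0.148), Chrna1 to 0.45 (p = 0.193), Chrnb1 to 0.14, Chrnd to 0.41 (p = 0.0571) and Chrne to 0.084, none of them called. Leaving out 1 mouse gave 0.031 to 0.48 for Chrng, 0.088 to 0.27 for Chrne, 0.12 to 0.31 for Chrnd, -0.0057 to 0.32 for Chrna1, -0.017 to 0.12 for Chrnb1 and -0.15 to 0.14 for Ncam1. The causes were not tested. Deviations of same-numbered mice from their group means correlated at -0.664 to 0.641 over the 11 numbers. With 63.6% of the variance on 1 component, these values cannot tell whether the numbers pair mice.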
